A study of Mus musculus with 7 samples.

Results

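The mitochondrial ribosomal protein genes are the nuclear genes named Mrpl, for the large subunit, and Mrps, for the small subunit, of the ribosome that works inside mitochondria. They were taken by name, as Mrpl or Mrps followed by a number and, where present, a letter a, b or c, which gave 78 of 50435 rows of the table: 49 Mrpl genes and 29 Mrps genes. Rows with a hyphen in the name, which are copies such as Mrpl23-ps1, were left out. Dap3, Ptcd3, Chchd1, Aurkaip1 and Gadd45gip1 also encode proteins of this ribosome under other names and are given apart.

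The RNA came from marrow cells of mice that were sorted by surface markers as sinusoidal endothelium, which lines the wide, leaky veins of bone marrow. The sort took cells positive for CD31 and negative for Sca1, CD45, Ter119, Gr1 and CD11b. Irradiated wild-type recipients in both groups had received Zbtb46dtr bone marrow, in which cells that express Zbtb46, a transcription factor gene of classical dendritic cells, carry the diphtheria toxin receptor. After 8 weeks, 3 samples came from mice injected intraperitoneally with 200 ng of diphtheria toxin (DT) in PBS, and 4 samples from mice injected with PBS alone, all harvested 1 day later. The labels call the samples biological replicates, without giving age, sex or how many mice went into each.

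Mitochondria carry a small genome of their own, and the proteins it encodes, all part of the respiratory chain or ATP synthase, are made by this ribosome. Its rRNA comes from the mitochondrial genome, whereas all of its proteins are encoded in the nucleus, made in the cytosol and imported. Some of these proteins have a relative in the bacterial ribosome and others occur only in mitochondria. The genes are expressed in nearly every cell type, with high levels in cells that grow or that build up respiration, such as erythroid precursors.

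Values are in RPM, reads per 1000000 reads. Taking the commonest low value of each library as 1 read put depth at 33195021 to 51245260 reads, and 3 reads at 0.0585 to 0.0904 RPM, which covers counting error only. The libraries stood well apart by group, with Pearson correlations of log2 values of 0.962 to 0.966 within DT, 0.908 to 0.963 within PBS and 0.798 to 0.875 between groups. Markers that define the labelled cell type were near 0: 11 of 12 endothelial genes were below 5 RPM in every library, and the 12 summed to 10.2 to 18.7 RPM in DT and 1.45 to 9.35 RPM in PBS. Neutrophil markers (13 of 13 rose) summed to 59296 to 63749 RPM in DT and 2018 to 4466 RPM in PBS, monocyte and macrophage markers (10 of 10 rose) to 6643 to 8325 RPM in DT and 377 to 750 RPM in PBS, and B-lineage markers (10 of 12 fell) to 5526 to 6633 RPM in DT and 7615 to 11963 RPM in PBS. Erythroid markers (10 of 16 fell and 3 rose) summed to 1698 to 2260 RPM in DT. In PBS they summed to 7016 to 11447 RPM in replicates 2 to 4, but to 1060 RPM in replicate 1, which stood apart from the rest of its group. This library also had the highest PBS sums of B-lineage, neutrophil, monocyte and macrophage, and T and natural killer cell markers. Its cell cycle genes summed to 5588 RPM, against 3224 to 4132 RPM in the other PBS libraries. Its endothelial and megakaryocyte sums lay within the range of the other PBS libraries. In such mixed samples, fewer cells of a type and less RNA per cell cannot be told apart. The part of these markers in the results on the mitochondrial ribosome was not tested.

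The members spread over 17 chromosomes, and their promoters are described here because 25 of 69 held the same short word. A link between this word and the changes in DT was not tested. For 69 of 78 members RefSeq gave a promoter on GRCm38.p6, a stretch of 300 bases that lies mostly upstream of the start in RefSeq. That start can differ from the GENCODE gene start: the stretch for Mrpl33 lies inside the GENCODE gene, which begins at 31596935. The letters CCGGAAG, the core bound by ETS factors such as Gabpa, were found on either strand in 36.2% of these promoters, against 19.5% of the promoters of 8890 protein-coding genes tested and 9.12% of all 27025. AAGATGGC, bound by Yy1, was found in 17.4% of them, against 5.07% of coding genes tested and 2.88% of all. GCATGCGC, part of the palindromic site of Nrf1, was found in 11.6%, against 5.76% and 2.80%. The GC box GGGCGG was in 49.3% of members' promoters, against 64.1% of coding genes tested and 35.9% of all, and the E box CACGTG was in 7.25%, against 10.4% and 7.24%. The TATA box word TATAAA was in 5.80%, against 6.82% and 14.2%, and the word CCAAT was in 39.1%, against 39.9% and 37.9%. The median count of CG pairs was 21 in members and 21 in coding genes tested. Words were searched on both strands. The ETS and Yy1 words can overlap by up to 3 letters, and matches of GCATGCGC on opposite strands overlap where the full palindrome is present. A match is a description of letters, not a shown site.

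In the promoters below, capitals mark the words of ETS factors, Yy1 and Nrf1 on either strand. Mrpl52 had the largest fall, Mrpl33 was the member that rose, Mrpl32 holds several Nrf1 words, and the stretch shown for Mrps11 overlaps the promoter of Mrpl46, which lies on the opposite strand.
Mrpl52, chr14:54426659-54426958, plus strand: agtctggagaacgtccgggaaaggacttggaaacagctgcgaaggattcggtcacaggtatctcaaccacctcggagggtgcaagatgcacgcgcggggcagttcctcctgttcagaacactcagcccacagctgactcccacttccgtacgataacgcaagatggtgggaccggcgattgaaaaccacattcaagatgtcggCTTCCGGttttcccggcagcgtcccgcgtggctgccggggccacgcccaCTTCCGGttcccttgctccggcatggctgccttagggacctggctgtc
Mrpl33, chr5:31613701-31614000, plus strand: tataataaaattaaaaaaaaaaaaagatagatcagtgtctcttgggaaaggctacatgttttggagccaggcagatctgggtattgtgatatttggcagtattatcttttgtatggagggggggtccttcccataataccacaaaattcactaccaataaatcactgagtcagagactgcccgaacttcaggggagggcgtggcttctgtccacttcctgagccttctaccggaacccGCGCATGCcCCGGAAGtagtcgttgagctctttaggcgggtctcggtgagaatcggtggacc
Mrpl32, chr13:14612988-14613287, minus strand: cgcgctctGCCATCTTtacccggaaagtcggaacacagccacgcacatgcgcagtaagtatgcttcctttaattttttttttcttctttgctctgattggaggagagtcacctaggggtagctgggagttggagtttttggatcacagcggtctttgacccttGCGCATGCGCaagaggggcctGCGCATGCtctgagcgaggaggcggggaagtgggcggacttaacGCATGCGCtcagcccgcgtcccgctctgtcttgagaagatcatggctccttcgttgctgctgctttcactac
Mrps11, chr7:78782881-78783180, plus strand: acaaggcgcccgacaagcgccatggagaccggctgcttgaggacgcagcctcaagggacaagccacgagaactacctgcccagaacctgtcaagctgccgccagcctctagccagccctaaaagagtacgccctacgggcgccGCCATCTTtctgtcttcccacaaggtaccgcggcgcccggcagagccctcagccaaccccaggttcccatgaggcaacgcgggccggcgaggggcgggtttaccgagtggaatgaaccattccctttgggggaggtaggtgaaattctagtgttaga

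Of the 78 mitochondrial ribosomal protein genes, 28 fell in DT and 1 rose. All 78 passed the filter on low values, a mean of at least 1 RPM over the 7 libraries, and all were tested in limma together with the other genes, 14100 in all. The threshold was a Benjamini-Hochberg adjusted p under 0.05; Mrpl33 was the member that rose, and 49 did not pass. Of all genes tested, 18.6% were lower and 13.4% higher by the same rule, so the members were called lower in a larger share (35.9%) and higher in a smaller one (1.28%). The median log2 change of the members was -0.49, with the middle of the distribution between -0.69 and -0.38, against -0.23 for all genes tested. The log2 change was below 0 in 75 of 78 members, against 63.3% of all genes tested. The DT and PBS ranges did not overlap in 37 members that were lower in DT, against 24.7% of all genes tested, and in 1 that was higher, against 16.1%. DT libraries were closely alike: the median member stood at 70.4%, 68.0% and 66.5% of its PBS mean in DT replicates 1 to 3, and at 77.4%, 126%, 97.8% and 99.4% in PBS replicates 1 to 4.

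**Figure D1:**
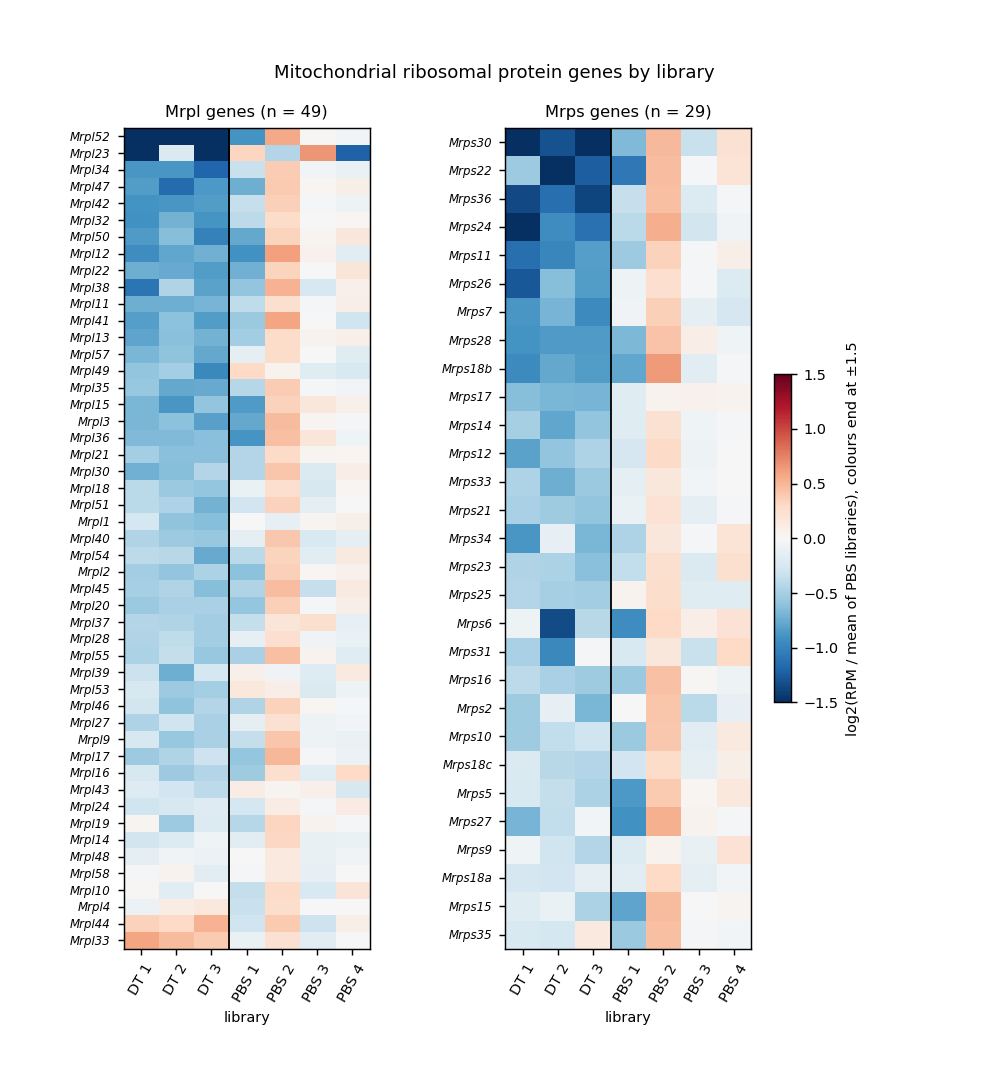
Each row is a member and each column a library, DT libraries left of PBS libraries; colour gives log2 of RPM over the member's mean in PBS, with Mrpl genes on the left and Mrps genes on the right, ordered by change. The 3 DT columns are blue for most rows and red for Mrpl33 and Mrpl44, PBS replicate 1 is blue for most rows, and PBS replicate 2 is red for most.

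**Figure D2:**
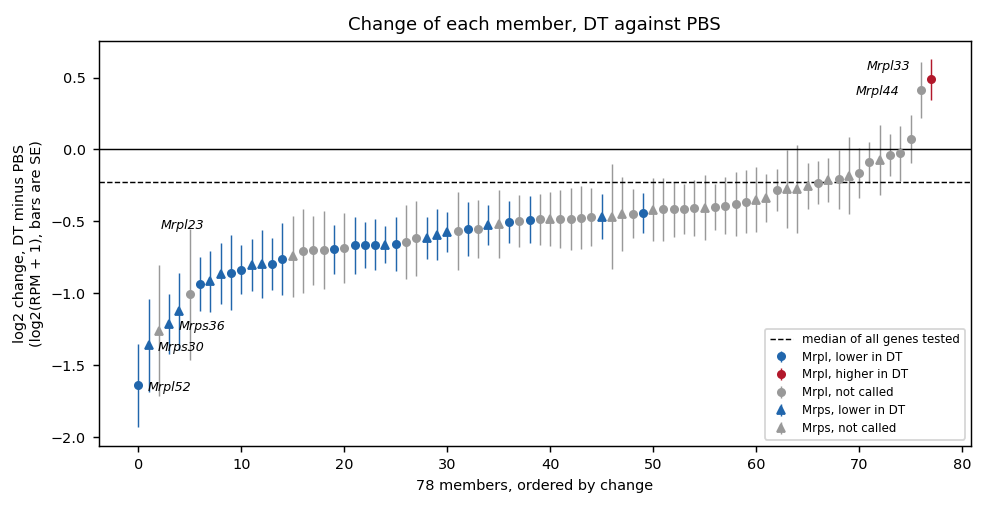
Points are the 78 members ordered by log2 change in DT against PBS (circles Mrpl, triangles Mrps), with bars of 1 SE; blue marks members called lower, red called higher and grey not called, and the dashed line is the median of all genes tested. Changes run from -1.64 for Mrpl52 to 0.49 for Mrpl33, and 75 of 78 lie below 0.

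How many members passed depended on the PBS libraries and on scaling. PBS replicate 1 was the lowest PBS library in 59 of 78 members and lay below the highest DT library in 37, and PBS replicate 2 was the highest in 65. The shares of all genes with these ranks are not given here, so the ranks are not shown to be particular to the members. Without PBS replicate 1, 55 members fell, against 25.6% of all genes tested. Leaving out DT replicate 1, 2 or 3 left 16, 15 or 13 members lower, against 10.7%, 11.4% and 8.62% of all genes tested. Leaving out PBS replicate 2, 3 or 4 left 22, 18 or 17, against 16.6%, 14.2% and 13.0%. Median-ratio scaling, which sets the typical gene to no change, moved the median of all genes to -0.01 and that of the members to -0.25. Under it 10 members fell (12.8%, against 8.93% of all genes tested) and 2, Mrpl33 and Mrpl44, rose (17% of all genes tested). All 10 were among the 28. With PBS replicate 1 left out and that scaling together, tried after the values were seen, 23 members fell and 2 rose, against 13.3% and 19.4% of all genes tested.

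**Figure D3:**
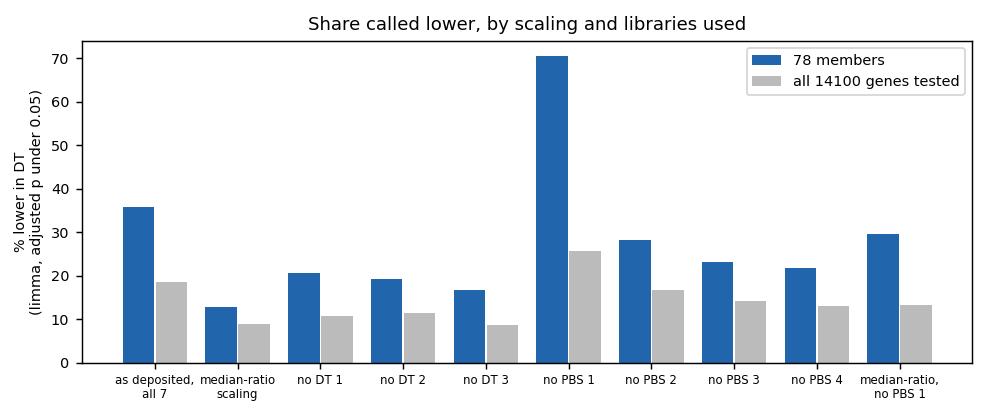
Bars give the percent of the 78 members (blue) and of all 14100 genes tested (grey) called lower in DT by limma. The settings are all 7 libraries, median-ratio scaling, each library left out in turn, and that scaling without PBS replicate 1. The last, tried after the values were seen, gives 29.5% of members and 13.3% of all genes. The share is 35.9% of members with all libraries as deposited, 70.5% without PBS replicate 1 and 12.8% with median-ratio scaling. The grey bar is lower than the blue bar in each setting drawn, and the gap is smallest under median-ratio scaling, where it stands at 8.93%. The settings reuse the same libraries and are not separate support.

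The summed levels of both subunits were lower in DT as deposited. The 49 Mrpl genes summed to 2682, 2621 and 2573 RPM in DT replicates 1 to 3, against 2893, 4599, 3557 and 3645 RPM in PBS replicates 1 to 4. The 29 Mrps genes summed to 1163, 1134 and 1149 RPM in DT, against 1372, 2105, 1609 and 1728 RPM in PBS. In both sums every DT library was below every PBS library, and PBS replicate 1 was nearest to DT. Under median-ratio scaling, tried for the sums after the values were seen, the Mrpl sums overlapped: they were 2843 to 2959 in DT, against 2874 in PBS replicate 1 and 3260 to 4149 in the other PBS libraries. The Mrps sums did not, at 1247 to 1283 in DT and 1363 to 1899 in PBS. Of the Mrpl genes 15 fell and 1 rose, with a median log2 change of -0.49. Of the Mrps genes 13 fell, with a median of -0.52, and of all genes tested 18.6% fell and 13.4% rose. The ratio of the Mrpl sum to the Mrps sum was 2.31, 2.31 and 2.24 in DT and 2.11, 2.19, 2.21 and 2.11 in PBS, or 2.29 ± 0.0404 in DT (SD, n = 3) and 2.15 ± 0.0528 in PBS (SD, n = 4). These ranges did not overlap, but without Mrpl33, left out after its values were seen, the ratio was 2.12 to 2.18 in DT and 2.04 to 2.15 in PBS, which do. A name does not always give the place: Mrps30 and Mrps18a sit in the large subunit of the mammalian ribosome, and Mrps36 is now known as part of the 2-oxoglutarate dehydrogenase complex. By place, 16 of 51 large and 11 of 26 small subunit genes fell, against 18.6% of all genes tested. Under median-ratio scaling 5 large and 4 small subunit genes by place fell, against 8.93% of all genes tested.

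**Figure D4:**
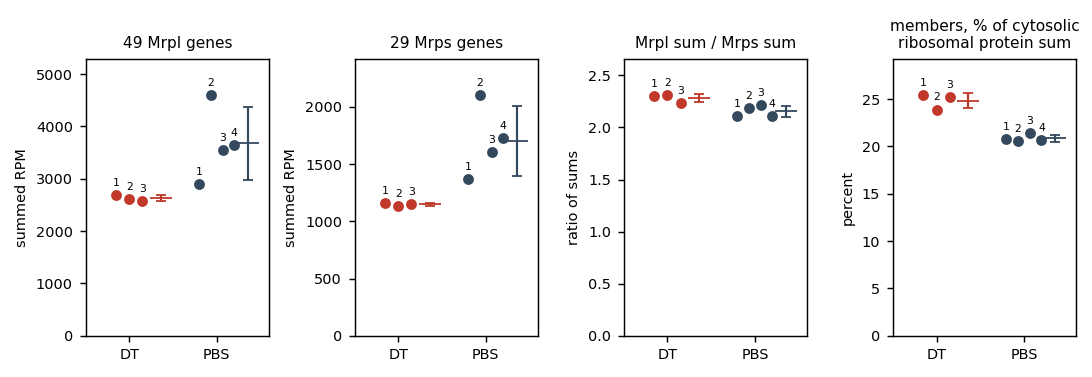
Points are libraries, numbered by replicate, with DT (red) left of PBS (dark); the horizontal mark and bar are the mean and SD (n = 3 and 4). From left to right the panels show the summed RPM of the 49 Mrpl genes, that of the 29 Mrps genes, the ratio of these sums, and the sum of all members as a percent of the sum of cytosolic ribosomal protein genes; in the last panel DT lies at 23.9% to 25.4% and PBS at 20.6% to 21.4%.

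Among large subunit genes the fall was widest in Mrpl52, which encodes a protein found in mitochondrial but not bacterial ribosomes. Mrpl52 (chromosome 14, 54426909 to 54429756 in mm10, 5 exons in its longest coding transcript) was at 26.3, 26.1 and 21.5 RPM in DT, against 44.8, 124, 84.3 and 80.9 RPM in PBS. The highest DT value was well below the lowest PBS value. Its mean in DT was 29.5% of that in PBS, a log2 change of -1.64 ± 0.29 (SE; limma, adjusted p = 0.00262), and it stayed under the threshold without any one library (adjusted p at most 0.0168) and under median-ratio scaling (0.00424). Mrpl34, a relative of the small bacterial protein L34, was at 42.6, 42.4 and 34.2 RPM in DT, against 61.8, 101, 75.4 and 72.6 RPM in PBS (log2 change -0.93 ± 0.19 SE, limma, adjusted p = 0.00510). Mrpl42, a protein specific to mitochondria, was at 62.9, 64.0 and 65.7 RPM in DT, against 92.3, 150, 115 and 111 RPM in PBS (log2 change -0.84 ± 0.17 SE, limma, adjusted p = 0.00548). Mrpl32 was at 34.5, 39.6 and 35.0 RPM in DT, against 49.2, 78.1, 64.9 and 65.8 RPM in PBS (log2 change -0.79 ± 0.18 SE, limma, adjusted p = 0.00881). Mrpl32 is known as a protein whose presequence the mitochondrial m-AAA protease removes before ribosomes are built. For these genes too the groups did not overlap, and each kept its call without any one library and under median-ratio scaling.

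The member that rose was Mrpl33, a relative of bacterial L33. It was at 156, 144 and 137 RPM in DT, against 96.9, 122, 93.2 and 104 RPM in PBS, a log2 change of 0.49 ± 0.14 (SE; limma, adjusted p = 0.0257). All DT values were above all PBS values. Mrpl33 is also the large subunit gene with the second highest level per coding length. The call was lost without DT replicate 1 (0.103), DT replicate 2 (0.0775), DT replicate 3 (0.0642), PBS replicate 3 (0.0654) or PBS replicate 4 (0.0584), whereas under median-ratio scaling the log2 change was 0.73 and the adjusted p 0.00317. Mrpl44, an RNase III-like protein, was at 64.3, 62.3 and 72.7 RPM in DT, against 41.2, 66.2, 40.7 and 53.9 RPM in PBS, and did not pass as deposited (log2 change 0.41 ± 0.19 SE, limma, adjusted p = 0.129). The groups overlapped only through PBS replicate 2. Under median-ratio scaling Mrpl44 passed (0.0241).

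**Figure D5:**
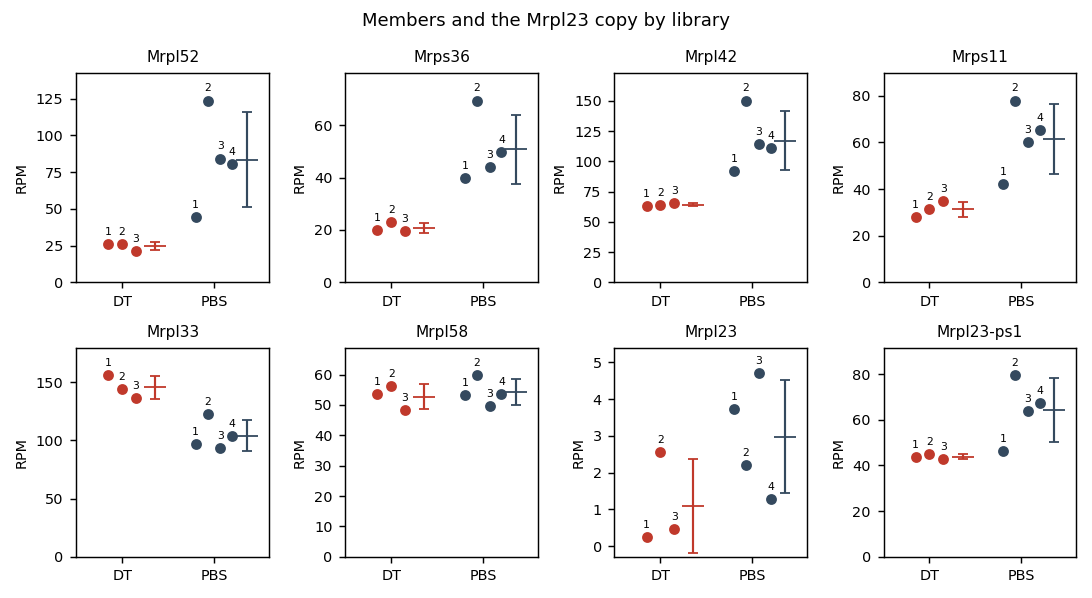
RPM of 7 members and of the copy Mrpl23-ps1 in each library, numbered by replicate, with DT (red) left of PBS (dark) and the mean and SD beside the points (n = 3 and 4). DT lies below PBS in Mrpl52, Mrps36, Mrpl42 and Mrps11 and above it in Mrpl33, the groups overlap in Mrpl58 and Mrpl23, and Mrpl23-ps1 lies far above Mrpl23 in every library.

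Of the genes of the stalk 1 of 3 fell, and of those listed here around the exit tunnel 1 of 6 (16.7%), near the 18.6% of all genes tested. The exit tunnel list was chosen after the values were seen and need not be complete, so its share holds for these 6 only. The stalk, to which the translation factors bind, is built from Mrpl10, Mrpl11 and Mrpl12. Mrpl11 fell, with 39.2, 39.1 and 40.1 RPM in DT, against 50.2, 77.0, 63.8 and 69.7 RPM in PBS (log2 change -0.69 ± 0.17 SE, limma, adjusted p = 0.0132). It missed the threshold under median-ratio scaling (0.0565). Mrpl12, which is also known to bind the mitochondrial RNA polymerase, was at 64.4, 71.5 and 74.3 RPM in DT, against 65.3, 188, 128 and 109 RPM in PBS, and did not pass (limma, adjusted p = 0.0914). Only PBS replicate 1 was in the DT range, and without it Mrpl12 fell (limma, adjusted p = 0.00348). Mrpl10 was at 52.2, 45.7 and 51.3 RPM in DT, against 40.2, 62.8, 43.9 and 59.0 RPM in PBS, a log2 change of -0.03 with a 95% interval from -0.45 to 0.40, and its sign changed with the scaling. Of the 6 genes listed around the exit tunnel (Mrpl4, Mrpl22, Mrpl23, Mrpl24, Mrpl45 and Mrpl47) 1 fell. This was Mrpl47, at 17.2, 13.8 and 16.9 RPM in DT, against 18.5, 40.2, 31.3 and 32.6 RPM in PBS (log2 change -0.86 ± 0.26 SE, limma, adjusted p = 0.0319). That call was lost without any one library other than PBS replicate 1 (adjusted p 0.0641 to 0.111) and under median-ratio scaling (0.0880). Mrpl4, on the wall of the tunnel, was at 70.1, 80.3 and 83.2 RPM in DT, against 59.0, 89.6, 74.9 and 74.1 RPM in PBS, with overlapping groups.

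Mrpl18 had the highest level per coding length of all members, at 486 RPM per kb of coding sequence, against a median of 87.8 over the 78. Known as a relative of the bacterial protein that binds 5S rRNA, it was at 228, 204 and 201 RPM in DT, against 282, 359, 255 and 307 RPM in PBS (log2 change -0.50 ± 0.15 SE, limma, adjusted p = 0.0265). The groups did not overlap, although the fall was to 70.1% of the PBS mean. Its call was lost without DT replicate 1 (0.0544), DT replicate 2 (0.0945), DT replicate 3 (0.105) or PBS replicate 4 (0.0672) and under median-ratio scaling (0.209). An exon of Mrpl18 overlaps Tcp1 on the opposite strand, and strand use is not given in the sources used here. Mrpl58, a peptidyl-tRNA hydrolase that frees stalled ribosomes, was, with Mrpl10, the large subunit gene with a log2 change nearest to 0, at 53.6, 56.3 and 48.3 RPM in DT, against 53.3, 59.9, 49.6 and 53.7 RPM in PBS. Its log2 change was -0.04, with a 95% interval from -0.36 to 0.29, and the sign turned under other scalings. Mrpl1 and Mrpl28 were the large subunit genes whose calls moved most with scaling: adjusted p was 0.0432 and 0.0350 as deposited, and 0.296 and 0.307 under median-ratio scaling. Without single libraries, adjusted p reached 0.159 for Mrpl1 (lost without DT replicate 2 or 3 or PBS replicate 3 or 4) and 0.128 for Mrpl28 (lost without any DT replicate or PBS replicate 3 or 4).

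In the small subunit, 2 of 3 genes for proteins along the path of the mRNA fell, against 18.6% of all genes tested. Under median-ratio scaling 1 of 3 fell, against 8.93% of all genes tested. Mrps24, a relative of bacterial S3 at the mRNA entrance, was at 10.1, 16.6 and 14.5 RPM in DT, against 23.9, 46.2, 26.1 and 30.5 RPM in PBS (log2 change -1.13 ± 0.27 SE, limma, adjusted p = 0.0113), and missed the threshold without DT replicate 1 (0.0521). Mrps12, a relative of bacterial S12 at the decoding site, was at 25.01, 28.8 and 31.6 RPM in DT, against 36.7, 53.0, 41.2 and 43.5 RPM in PBS (log2 change -0.59 ± 0.18 SE, limma, adjusted p = 0.0313). In both genes the groups did not overlap, but Mrps12 kept its call only without PBS replicate 1 among the single libraries left out (0.0535 to 0.120 without the others). Mrps5, also at the mRNA entrance, was at 33.6, 30.9 and 28.4 RPM in DT, against 21.7, 52.0, 40.3 and 43.9 RPM in PBS, and did not pass (limma, adjusted p = 0.462). Without PBS replicate 1, Mrps5 fell (limma, adjusted p = 0.0288). Of the head proteins Mrps7, Mrps9, Mrps10 and Mrps14, 2 fell, and 1 under median-ratio scaling. Mrps7 was at 31.1, 35.3 and 29.4 RPM in DT, against 55.03, 73.5, 52.1 and 47.8 RPM in PBS (log2 change -0.80 ± 0.18 SE, limma, adjusted p = 0.00895). Mrps14, with the highest level per coding length in the small subunit at 445 RPM per kb, was at 142, 117 and 133 RPM in DT, against 177, 236, 193 and 198 RPM in PBS (log2 change -0.62 ± 0.14 SE, limma, adjusted p = 0.0103). Mrps7 kept its call without any one library, and Mrps14 lost it under median-ratio scaling (0.0704) or when DT replicate 2 was left out (0.0538).

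Mrps11, Mrps26 and Mrps21 fell as well. Mrps11, a relative of bacterial S11, was at 28.1, 31.3 and 34.7 RPM in DT, against 42.0, 77.9, 60.2 and 65.3 RPM in PBS (log2 change -0.92 ± 0.21 SE, limma, adjusted p = 0.00993), and kept its call without any one library and under median-ratio scaling. Its neighbour Mrpl46, an exon of which overlaps Mrps11 on the opposite strand, was at 58.4, 46.5 and 52.2 RPM in DT, against 51.6, 89.6, 72.2 and 69.3 RPM in PBS (log2 change -0.41 ± 0.19 SE, limma, adjusted p = 0.136). Mrpl46 had overlapping groups, through PBS replicate 1, and Mrps11 did not. Without that library Mrpl46 fell (limma, adjusted p = 0.0214). Mrps26, specific to mitochondria, was at 12.02, 18.7 and 16.3 RPM in DT, against 27.6, 34.7, 28.7 and 25.2 RPM in PBS (log2 change -0.86 ± 0.21 SE, limma, adjusted p = 0.0129), and missed the threshold under median-ratio scaling (0.0531) or with DT replicate 1 left out (0.0591). Mrps21, second in the small subunit in level per coding length at 331 RPM per kb, was at 71.2, 69.1 and 66.0 RPM in DT, against 93.4, 116, 91.0 and 98.7 RPM in PBS (log2 change -0.52 ± 0.14 SE, limma, adjusted p = 0.0179). It lost its call without DT replicate 1 (0.0514), DT replicate 2 (0.0594) or DT replicate 3 (0.0773), and median-ratio scaling gave 0.151. Mrps25 had an adjusted p of 0.0446 in limma as deposited, which was lost without any library but PBS replicate 1 (0.0504 to 0.133) and under that scaling (0.331). Mrps35 and Mrps15 changed least in the small subunit, with log2 changes of -0.07 (95% interval -0.61 to 0.47) and -0.18 (-0.78 to 0.42), and signs that turned under median-ratio scaling.

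Mammals have Mrps18a, Mrps18b and Mrps18c, all related to bacterial S18. Of these 0 of 3 passed in limma (unadjusted p of 0.201, 0.0260 and 0.0728), against 18.6% of all genes tested lower and 13.4% higher. Under median-ratio scaling 0 of 3 passed, against 8.93% lower and 17% higher. With only 3 genes, 0 does not stand apart from these shares. Mrps18b was at 23.7, 27.1 and 25.8 RPM in DT, against 26.7, 71.7, 40.7 and 44.9 RPM in PBS, so that PBS replicate 1 alone lay in the DT range. Without that library Mrps18b fell (limma, adjusted p = 0.00679). Mrps18a, of the large subunit despite its name, was at 70.2, 68.8 and 75.7 RPM in DT, against 74.5, 103, 75.7 and 81.5 RPM in PBS. Mrps30, likewise of the large subunit, was low throughout, at 4.05, 4.75 and 2.77 RPM in DT, against 7.44, 16.6, 9.38 and 13.8 RPM in PBS (log2 change -1.36 ± 0.32 SE, limma, adjusted p = 0.0112). Its groups did not overlap, and it missed the threshold without DT replicate 3 (0.0569). Mrps22, specific to mitochondria, had a log2 change of -1.26 ± 0.46 (SE) but did not pass (limma, adjusted p = 0.0600). It was at 20.6, 5.02 and 12.8 RPM in DT, against 14.2, 41.5, 29.8 and 34.7 RPM in PBS, with PBS replicate 1 below DT replicate 1. Without PBS replicate 1, Mrps22 fell (limma, adjusted p = 0.0121). Mrps36 was at 19.9, 23.1 and 19.6 RPM in DT, against 39.9, 69.3, 44.0 and 49.6 RPM in PBS, the largest fall after Mrpl52 among calls that held without any one library and under median-ratio scaling (log2 change -1.22 ± 0.21 SE, limma, adjusted p = 0.00223). In all, 9 of the 28 members that fell did so whichever 1 library was left out: Mrpl11, Mrpl32, Mrpl34, Mrpl42, Mrpl52, Mrps7, Mrps11, Mrps17 and Mrps36. Of these 8, all but Mrpl11, also fell under median-ratio scaling. The share of all genes tested that meets these joint rules is not given here. In single fits without 1 library, 8.62% to 25.6% of all genes tested were lower.

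Grouped by descent rather than by subunit, 18 of 47 members with a bacterial relative fell, with a median log2 change of -0.50. Of 30 members specific to mitochondria 9 fell, with a median of -0.48, and Mrps36 was in neither group. The share of all genes tested was 18.6%. Under median-ratio scaling 6 of 47 and 3 of 30 fell, against 8.93% of all genes tested. Spearman's rho across the 78 members, which share libraries and are not replicates, was 0.15 between log2 change and mean RPM, 0.24 with coding length and 0.24 with the number of exons. Members with CCGGAAG in the promoter had a median log2 change of -0.50 and those without it -0.48, and 9 of 25 and 17 of 44 of them fell. Of 12 with AAGATGGC 8 fell, with a median of -0.66, against 18 of 57 without it and a median of -0.47. Of 8 with GCATGCGC 1 fell, with a median of -0.40. These splits were not tested.

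Mrpl23 had the lowest mean of the members, at 2.17 RPM over all libraries, and a copy of it was listed higher. Mrpl23, at the exit tunnel, was at 0.244, 2.57 and 0.461 RPM in DT, against 3.74, 2.21, 4.70 and 1.29 RPM in PBS, the lowest level per coding length of all members. Mrpl23-ps1, annotated as a processed pseudogene on chromosome 2 at 74591330 to 74591909 (mm10, GENCODE vM21), was at 43.7, 45.0 and 43.0 RPM in DT, against 46.1, 79.7, 63.9 and 67.3 RPM in PBS, close to the median level of the members (53.2 RPM). A processed copy shares its sequence with the spliced mRNA, and how the authors' counting divided such reads is not given in the sources used here, so the level and change of Mrpl23 are uncertain. Alone, Mrpl23 did not pass (limma, adjusted p = 0.116), and with its copy added, tried after the values were seen, it fell (log2 change -0.55 ± 0.18 SE, limma, adjusted p = 0.0427). Adding the copies of Mrps36 left its fall at -1.11 (limma, adjusted p = 0.00338), and Mrpl48 with its copy did not pass (limma, adjusted p = 0.718). In 33 of 78 members an exon overlaps an exon of another gene of the table, in 27 of them on the opposite strand. Of members named in the text, Mrpl18, Mrpl24, Mrpl44, Mrpl46, Mrpl47, Mrpl48, Mrpl49, Mrps7, Mrps11, Mrps18c, Mrps24 and Mrps25 have such a partner that averaged over 5 RPM.

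Divergent neighbours were common. For 18 of 78 members (23.1%) another protein-coding gene starts on the opposite strand within 1000 bases upstream, against 10.9% of 11181 protein-coding genes tested. Mrps12 faces Sars2, the mitochondrial serine-tRNA synthetase, with log2 changes of -0.59 and -0.63, of which only that of Mrps12 passed. Mrpl49 faces Fau, which encodes a cytosolic ribosomal protein as a fusion with a ubiquitin-like part, and both fell, by 0.66 and 0.78 on the log2 scale (limma, adjusted p = 0.0192 and 0.00833). Mrpl49 lost its call under median-ratio scaling (0.140) or when DT replicate 3 was left out (0.0935). Mrpl41 faces Pnpla7, which rose (log2 change 0.93, limma, adjusted p = 0.0157), while Mrpl41 was at -0.69 and did not pass. Without PBS replicate 1, Mrpl41 fell (limma, adjusted p = 0.0117).

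Of the proteins of this ribosome under other names, 4 of 5 fell and 1 rose, against 18.6% and 13.4% of all genes tested. Under median-ratio scaling 2 of 5 fell, against 8.93% of all genes tested. Chchd1, in the small subunit, was at 51.1, 46.4 and 53.5 RPM in DT, against 91.4, 109, 74.0 and 97.2 RPM in PBS (log2 change -0.86 ± 0.16 SE, limma, adjusted p = 0.00355), and Ptcd3, which helps mRNA to the small subunit, at 57.9, 56.5 and 58.7 RPM in DT, against 78.9, 108, 123 and 85.5 RPM in PBS (limma, adjusted p = 0.0104, and 0.0523 under median-ratio scaling). Dap3 and Gadd45gip1 fell by 0.81 and 0.91 on the log2 scale. Aurkaip1, a small subunit protein, was at 118, 111 and 115 RPM in DT, against 71.9, 107, 75.3 and 78.1 RPM in PBS, with no overlap (log2 change 0.48 ± 0.16 SE, limma, adjusted p = 0.0461). Its call was lost without any one library other than PBS replicate 2 (0.0572 to 0.131) but had an adjusted p of 0.00658 under median-ratio scaling. Dap3 lost its call without any DT library or PBS replicate 3 or 4 (0.0519 to 0.0899) and under median-ratio scaling (0.0794), and Gadd45gip1 without DT replicate 1 (0.0520).

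Among other genes that make, feed or control the mitochondrial ribosome, the share called lower ran from below to above the 18.6% of all genes tested. Among 22 assembly factors 3 fell (13.6%, below that share), with a median log2 change of -0.44; Noa1, a GTPase of small subunit assembly, was at 5.72, 5.76 and 2.30 RPM in DT, against 7.77, 31.6, 18.0 and 14.3 RPM in PBS (limma, adjusted p = 0.0179, and 0.0823 without DT replicate 3). Malsu1, a factor of large subunit assembly, was at 12.4, 9.01 and 10.1 RPM in DT, against 14.8, 19.0, 17.2 and 20.501 RPM in PBS (limma, adjusted p = 0.0335), and kept its call only without PBS replicate 1 (0.0520 to 0.119 without the others, and 0.120 under median-ratio scaling). Among 16 translation factors and mRNA-binding proteins 6 fell (37.5%, median -0.53), with Slirp and Lrpprc, which together protect mitochondrial mRNAs, at log2 changes of -0.89 and -1.196 (limma, adjusted p = 0.00636 and 0.0170; Lrpprc lost its call without DT replicate 1, at 0.0632, or 3, at 0.0581). Of 20 genes that charge mitochondrial tRNAs 2 fell (10%, below the share of all genes, median -0.47), Iars2 by 1.52 and Lars2 by 0.62, and Lars2 lost its call without any one DT library (0.0508 to 0.101) and under median-ratio scaling (0.131). Of 18 genes that copy, transcribe or process mitochondrial DNA and RNA 7 fell (38.9%, median -0.41), including the RNA polymerase Polrmt, at 8.96, 6.59 and 8.84 RPM in DT, against 16.1, 21.7, 15.2 and 17.4 RPM in PBS (limma, adjusted p = 0.00887), and its partner Tfb2m. Of 27 import genes, which bring the ribosomal proteins in, 11 fell (40.7%, median -0.57), including Tomm40, the channel of the outer membrane, at 4.21, 5.97 and 3.42 RPM in DT, against 10.5, 17.5, 10.3 and 14.98 RPM in PBS (limma, adjusted p = 0.00657). Dnajc19, of the motor that pulls proteins through the inner membrane, was at 26.7, 23.7 and 22.1 RPM in DT, against 43.3, 42.7, 50.9 and 40.1 RPM in PBS (limma, adjusted p = 0.00427). The mRNAs that this ribosome translates could not be followed, since all 13 mitochondrially encoded protein genes are listed at the offset of 0.0001 in every library.

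Among 10 regulators of mitochondrial gene expression 2 fell (20%, near the 18.6% of all genes tested), with a median log2 change of -0.51. They were Yy1, at 19.0, 20.8 and 13.2 RPM in DT, against 43.2, 37.8, 32.2 and 45.7 RPM in PBS (log2 change -1.14 ± 0.21 SE, limma, adjusted p = 0.00348), and Gabpa, the ETS factor named above, at 26.4, 25.3 and 16.7 RPM in DT, against 42.1, 46.5, 35.0 and 42.3 RPM in PBS (log2 change -0.85 ± 0.20 SE, limma, adjusted p = 0.0112, and 0.0538 without DT replicate 3). In both, all DT values were below all PBS values. Nrf1 was at 73.0, 69.8 and 77.2 RPM in DT, against 96.8, 57.7, 63.2 and 91.8 RPM in PBS, with overlapping groups. Ppargc1a, the coactivator of mitochondrial growth, was at or under 4.78 RPM in every library, and Myc did not pass either (limma, adjusted p = 0.357).

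The members can be set beside the other ribosome and the respiratory chain. Of 76 cytosolic ribosomal protein genes 69 fell (90.8%, median log2 change -0.89), and of 76 nuclear subunits of oxidative phosphorylation 42 (55.3%, median -0.52), beside 28 of 78 members (median -0.49). Under median-ratio scaling 54 cytosolic ribosomal protein genes, 11 oxidative phosphorylation subunits and 10 members fell, against 8.93% of all genes tested. The lists of members and oxidative phosphorylation subunits thus differed less in their counts under that scaling. These differences between lists were not tested. The genes with the smallest p were Rpl5 and Rps15a in the cytosolic ribosome (log2 changes -1.27 and -1.07, limma, adjusted p = 0.000592 and 0.000839) and Uqcrh and Ndufab1 in the respiratory chain (-0.76 and -1.2003, limma, adjusted p = 0.00202 and 0.00301). The summed RPM of the members was 25.4%, 23.9% and 25.2% of that of the cytosolic ribosomal protein genes in DT, and 20.8%, 20.6%, 21.4% and 20.7% in PBS. All DT values of this share were above all PBS values, and PBS replicate 1 lay within the range of the other PBS libraries, which it did not in the sums themselves. Relative to the oxidative phosphorylation subunits the share was 42.4%, 41.9% and 41.5% in DT and 41.9%, 44.5%, 44.7% and 42.8% in PBS, with overlapping groups. Such ratios within a library do not depend on how libraries are scaled. Many cytosolic ribosomal protein genes have processed copies, which makes their sums uncertain.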

How the data were processed

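Per the submitters' processing notes, the authors used STAR 2.5.3a, Partek and the mm10 build. Which annotation and counting settings were used, and whether strand was, is not given in the sources used here. Each library began with 1 ng of RNA, an ultra-low input cDNA kit and 14 cycles of amplification, and was read by 50-base single reads, per the labels. The deposited table states FPKM in its name, but its values behave as RPM: after subtracting an offset of 0.0001, 1040 to 1225 genes per library share the most frequent value, and their transcript lengths (5th to 95th percentile) run from 79.7 to 7329 bases. The design had assumed that the name might hold, and the log-scale test was kept. Only 60.5% to 62.6% of values up to 20 steps were within 0.02 of a whole number of steps, so whole reads were not recovered.

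The 14100 genes whose 7 libraries averaged 1 RPM or more were fitted in limma 3.58.1 (R 4.3.3) on log2(RPM + 1) with a trend in the variance. Two-sided p-values for DT minus PBS were adjusted by the Benjamini-Hochberg method over all of these genes. Changes of low genes are understated on this scale. The fit was tested on simulated data. Those data held no shift in scaling and no outlying library, so that test cannot speak to either. P-values measure the spread between these samples. Members and lists were chosen with earlier results of these data known; the groups by descent and place in the ribosome, the promoter words and the genes around the exit tunnel and stalk were chosen after the values were seen. Named by rule were, per subunit, up to 5 members with the largest falls or rises among those called, 2 with the highest level per coding kb, 2 nearest to no change, 2 with the largest shift of adjusted p among calls that scaling moved, the misnamed genes, and up to 2 genes per direction of each list. The rest (Mrpl4, Mrpl11, Mrpl12, Mrpl23, Mrpl44, Mrpl46, Mrpl49, Mrpl41, Mrps5, Mrps7, Mrps12, Mrps17, Mrps18b, Mrps18c, Mrps22, Mrpl24, Mrpl48, Dap3, Gadd45gip1, Nrf1, Ppargc1a, Myc and divergent neighbours) were chosen after their values were seen. T cell and natural killer cell markers rose in 8 of 9 genes tested, 5 megakaryocyte markers had a median log2 change of 0.30, and cell cycle genes fell in 2 of 16. Positions and lengths are from GENCODE vM21. Levels per coding length divide all reads of a gene by its coding bases only, so their order depends on transcript length too. Mrps14 has 384 coding bases and a longest transcript of 2999 bases, and Mrps21 has 261 and 488. Alternatives covered the pseudocount, the filter, scaling, the trend, sample weights, a replicate block and leaving out each library.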

Additional observations from a re-analysis of the deposited data

How the results depend on the processing

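The median log2 change of the members kept its direction in every setting run, from -0.60 without PBS replicate 1 to -0.25 under median-ratio scaling, and moved by less than 1 SD between libraries. Counts of calls moved more, and the cause was not tested. Members lower in DT were 28 as deposited, 18 without a filter, 10 under median-ratio scaling, 50 with sample weights and 13 to 55 without 1 library; all genes tested moved too, with 18.6%, 5.8%, 8.93%, 27.1% and 8.62% to 25.6% lower in the same settings. Members higher were 1 as deposited, 2 under median-ratio scaling with or without PBS replicate 1, 0 without the trend and 0 to 2 without 1 library. Mrpl genes lower were 7 without a filter, 4 under median-ratio scaling, 8 without the trend, 32 with sample weights and 5 to 35 without 1 library, and Mrps genes lower were 6 under median-ratio scaling and 7 to 20 without 1 library. Genes lower in 8 other mitochondrial lists together were 77 of 194 as deposited, 42 without a filter, 26 under median-ratio scaling, 116 with sample weights and 21 to 120 without 1 library. Replicate numbers did not pair the samples: the correlations of deviations were 0.0419, 0.0485 and 0.0103 for the pairs numbered 1 to 3. With the replicate number as a block, 14 members were lower (11.2% of all genes tested) and 0 higher, and 37 genes of the other lists were lower. Of the 14 members, 7 were Mrpl and 7 Mrps genes. No DT sample has replicate number 4, so PBS replicate 4 adds nothing to the DT estimate in that fit. The fit also has few residual degrees of freedom. The log2 ratio of the Mrpl to the Mrps sum in DT over PBS was 0.0861, 0.0458 without Mrpl33 and 0.0168 from medians of scaled members.

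Signs turned for members that were never called. Under median-ratio scaling Mrpl10 was at 0.215, Mrpl58 at 0.205, Mrps35 at 0.166, Mrps15 at 0.0594 and Mrps18a at 0.0325. With PBS replicate 1 also left out, Mrpl10 was at 0.138, Mrpl58 at 0.231, Mrps35 at 0.0342 and Mrps18a at 0.0133. With quantile normalization Mrpl10 was at 0.0534, Mrpl58 at 0.0450 and Mrps35 at 0.0210, and when scaled without the 100 most abundant genes Mrpl10 was at 0.0292 and Mrpl58 at 0.0196. With the replicate block Mrpl10 was at 0.0451. Without 1 library, Mrpl10 ran from -0.135 to 0.0750, Mrpl58 from -0.0842 to 0.0239 and Mrps35 from -0.235 to 0.0878. Of 418 values of 22 named members in 19 settings, 323 stayed on the same side of the threshold, 73 lost the call and 22 changed sign. With 3 and 4 libraries, a p that misses the threshold does not show that a member did not differ.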
